A study of Mus musculus with 9 samples.

Results

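Acap2 is an Arf GTPase-activating protein (Arf GAP) gene, and it was followed here in mouse ventral hippocampus beside 8 related Arf GAP genes (Acap3, Asap1, Asap2, Agap1, Agap2, Agap3, Arfgap1 and Arfgap3) and Arf6, the small GTPase on which several of these proteins act. The 10 genes were named from a list and matched by symbol, and all 10 were found among the 40213 genes of the count tables and passed the filter on low counts that left 16106 genes for testing. Acap2 itself was chosen by its measured levels in these libraries, lower after restraint and at sedentary values with exercise, so its levels in the 3 groups are given as a description, with no test. The other 9 genes belong to the same family or pathway and were tested across all genes.

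The study compared 3 groups of 3 male wild-type C57BL/6J mice, all 8 weeks old when housed. SUS+LE mice, labelled stress-susceptible, were held in tubes for 2 hours a day over 14 days and then ran on a treadmill at low intensity for 2 weeks. SUS mice, also labelled stress-susceptible, had the same restraint and no exercise. SED mice were sedentary and had no treatment. The labels name no scoring of susceptibility, no group that was exercised without restraint and no interval between the last session and tissue collection, so an effect of exercise alone cannot be told apart from one that needs prior restraint.

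Arf GTPases recruit coats and lipid enzymes to membranes while they hold GTP. Guanine nucleotide exchange factors (Arf GEFs) switch them on, and Arf GAPs switch them off by speeding GTP hydrolysis through a zinc finger domain. Arf6 works at the plasma membrane and on recycling endosomes, where it helps to shape dendrites, spines and the return of receptors to the surface. ACAP2 turns off Arf6 and binds Rab35, an endosomal GTPase, and the pair is known for neurite outgrowth in cultured rat cells and for the differentiation of oligodendrocytes.

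Total RNA was sequenced to 14172344 to 15582304 counts per library. Levels are given in CPM, counts scaled to a common library size with TMM factors, which correct the totals for composition. Each library comes from a separately named mouse. Hippocampal genes were present in every library, with Prox1, the dentate granule cell factor, at a mean of 94.8 CPM over the 9 libraries, Wfs1 of CA1 at 104 CPM and Coch, a ventral marker, at 7.33 CPM. Choroid plexus content differed widely between libraries. Ttr, its main marker, stood at 83.2, 1509 and 59.6 CPM in SUS+LE 1 to 3, at 27.4, 2659 and 6085 CPM in SUS 1 to 3, and at 4310, 3543 and 2935 CPM in SED 1 to 3. Results are therefore also given without the 3 libraries lowest in Ttr, which are SUS 1, SUS+LE 1 and SUS+LE 3. In bulk tissue, fewer cells of a type and less RNA per cell cannot be told apart.

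Acap2 stood at 177, 178 and 171 CPM in SUS+LE mice, at 136, 143 and 138 CPM in SUS mice, and at 178, 163 and 178 CPM in SED mice. Every SUS value lay below every value of the other groups, while the SUS+LE and SED values overlapped. These levels rest on 1974 to 2735 counts per library. The means were 175 ± 3.80 CPM in SUS+LE, 139 ± 3.74 CPM in SUS and 173 ± 8.99 CPM in SED (SD, n = 3 each). Relative to SED, the SUS level differed by −19.8%, a log2 fold change of −0.32 (SE 0.05). Relative to SUS, the SUS+LE level was 26.2% higher, a log2 fold change of 0.34 (SE 0.05). Between SUS+LE and SED the log2 fold change was 0.02 (SE 0.05). The first comparison and the second share the SUS libraries, so a low SUS group moves both. Values without overlap between SUS and SED were found in 18.3% of the 16106 tested genes (9.72% higher and 8.56% lower in SUS), and between SUS+LE and SUS in 17% of them (8.61% higher and 8.38% lower in SUS+LE). Acap2 was chosen by this contrast, so nothing is read from these shares.

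**Figure D1:**
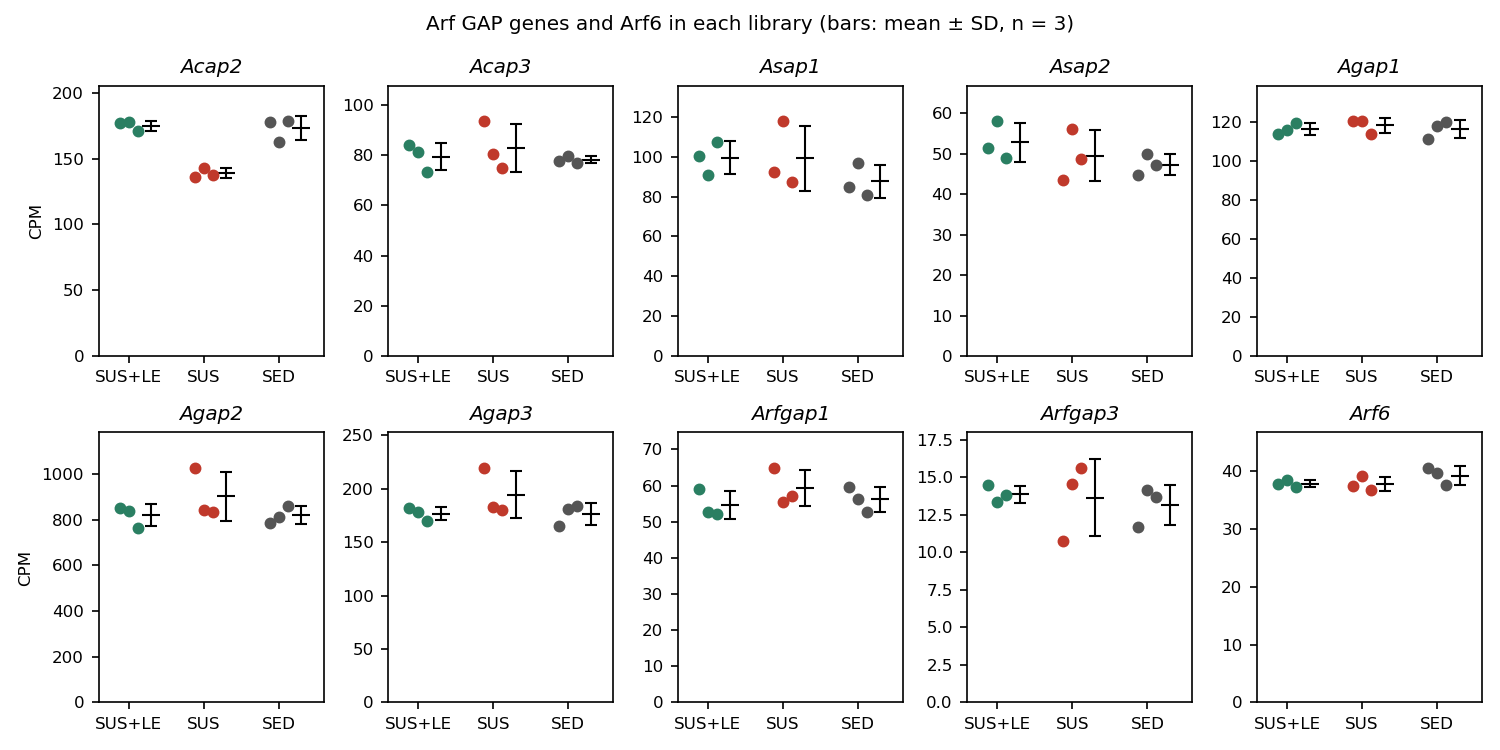
Level of each of the 10 genes in CPM (vertical axis, from 0) in every library of the SUS+LE, SUS and SED groups, with the mean and SD of 3 mice beside the points. In Acap2 the 3 SUS points, at 136 to 143 CPM, lie below all others, and in each of the other 9 genes the groups overlap.

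Without the 3 libraries lowest in Ttr the Acap2 log2 fold change was −0.31 (SE 0.06) for SUS against SED and 0.35 (SE 0.08) for SUS+LE against SUS. The second of these values rests on 1 SUS+LE library, which is assumed to vary like the other groups. With a choroid plexus score as a covariate the values were −0.30 (SE 0.06) and 0.35 (SE 0.06). Leaving out each library in turn gave −0.36 to −0.30 for SUS against SED and 0.32 to 0.35 for SUS+LE against SUS. Acap2 was chosen by these values, and every SUS value lay below the others, so leaving out 1 library could not turn the sign. These ranges are a description and no support for the difference.

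Myelin and oligodendrocyte markers had medians in the direction of Acap2, though SUS+LE and SUS overlapped in their summed level. All 12 members of that list had lower values in SUS than in SED (median log2 fold change −0.20, against −0.000386 over all tested genes, of which 50.1% were below 0), and 11 of 12 had higher values in SUS+LE than in SUS (median 0.13, against 0.00112 over all tested genes, of which 50.3% were above 0). Their summed level was 2786 to 3437 CPM in SUS+LE, 2708 to 3090 CPM in SUS and 3216 to 3438 CPM in SED, and 0 of the 12 genes were at 0 counts in any library. By library, the list's mean centred log2 CPM was 0.16, 0.03 and −0.09 in SUS+LE 1 to 3, −0.18, 0.01 and −0.19 in SUS 1 to 3, and 0.06, 0.14 and 0.07 in SED 1 to 3. SUS+LE 3 stood below SUS 2 in the myelin list and above it in Acap2. With this score as a covariate, chosen after seeing the data, the Acap2 log2 fold change was −0.29 (SE 0.08) for SUS against SED and 0.31 (SE 0.07) for SUS+LE against SUS. The score itself differed between groups, so this fit cannot tell oligodendrocyte content apart from group. Astrocyte markers, a list of 8 genes, summed to 5440 to 5669 CPM in SUS+LE, 4975 to 5167 CPM in SUS and 5348 to 5635 CPM in SED, with 0 genes at 0 counts. Slc1a2 held most of this sum, at means of 3991, 3595 and 4003 CPM in SUS+LE, SUS and SED. Within that list 6 of 8 genes were higher in SUS+LE than in SUS (median log2 fold change 0.08). For SUS against SED, 4 of 8 were lower and 4 higher (median −0.02). Endothelial markers, also 8 genes, summed to 285 to 297 CPM in SUS+LE, 239 to 265 CPM in SUS and 264 to 276 CPM in SED. Of these, 7 of 8 were lower in SUS than in SED (median log2 fold change −0.09) and 7 of 8 higher in SUS+LE than in SUS (median 0.19), with 0 genes at 0 counts. The part of astrocyte and endothelial content in the Acap2 difference was not tested.

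Neuronal region markers also differed. Prox1 stood at 107, 99.9 and 92.9 CPM in SUS+LE 1 to 3, at 87.9, 75.5 and 74.3 CPM in SUS 1 to 3, and at 108, 88.9 and 118 CPM in SED 1 to 3. Like Acap2, it had every SUS value below the values of the other groups, with a log2 fold change of −0.41 (SE 0.11, edgeR adjusted p = 0.178) for SUS against SED and 0.34 (SE 0.11, edgeR adjusted p = 0.211) for SUS+LE against SUS. Wfs1 lay on the other side of 0 in those comparisons, at 0.62 (SE 0.24, edgeR adjusted p = 0.348) and −0.49 (SE 0.23, edgeR adjusted p = 0.434). Fibcd1 and Grik4, also markers of hippocampal neurons, had smaller differences. Fibcd1 was at 0.05 (SE 0.07, edgeR adjusted p = 0.810) and −0.11 (SE 0.07, edgeR adjusted p = 0.508). Grik4 was at 0.12 (SE 0.12, edgeR adjusted p = 0.727) and −0.17 (SE 0.12, edgeR adjusted p = 0.556). Of the 9 hippocampal neuron markers, 8 were higher and 1 lower in SUS than in SED, with a median of 0.09. Their summed level was 4239 to 4551 CPM in SUS+LE, 4186 to 4576 CPM in SUS and 4167 to 4217 CPM in SED, with 0 genes at 0 counts. Of 6 ventral hippocampus markers, 5 were lower in SUS than in SED (median −0.14) and 4 lower in SUS+LE than in SUS (median −0.08). For SUS+LE against SED 4 were lower (median −0.15), and groups did not overlap in 2 of 6, against 16.2% of all tested genes. These 2 were Coch and Htr2c. Coch ran from 3.99 CPM in SUS 1 to 11.0 CPM in SED 1. In SUS 1 to 3, Htr2c stood at 36.9, 77.0 and 96.2 CPM and Coch at 3.99, 6.25 and 10.4 CPM, rising as Ttr did. In the SUS+LE group Ttr was highest in SUS+LE 2, where Htr2c was also highest and Coch lowest. The part of choroid plexus content in this list was not tested. The part of the mix of hippocampal fields or of dissection in the Acap2 difference was not tested.

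Base composition also moved with the groups. Across the 14697 tested genes with a matched transcript, log2 fold changes had a Spearman rho with GC content of 0.353 for SUS against SED and −0.382 for SUS+LE against SUS. With transcript length the rho was −0.234 and 0.127. These are descriptions across genes, which are not independent replicates. The longest annotated Acap2 transcript holds 43.8% G and C over 6515 bases, a higher GC content than 19.9% of the tested genes have and a greater length than 88.1% of them. With trends on GC content and transcript length removed from each library, the Acap2 log2 fold change was −0.22 (SE 0.05) for SUS against SED and 0.27 (SE 0.05) for SUS+LE against SUS.

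**Figure D2:**
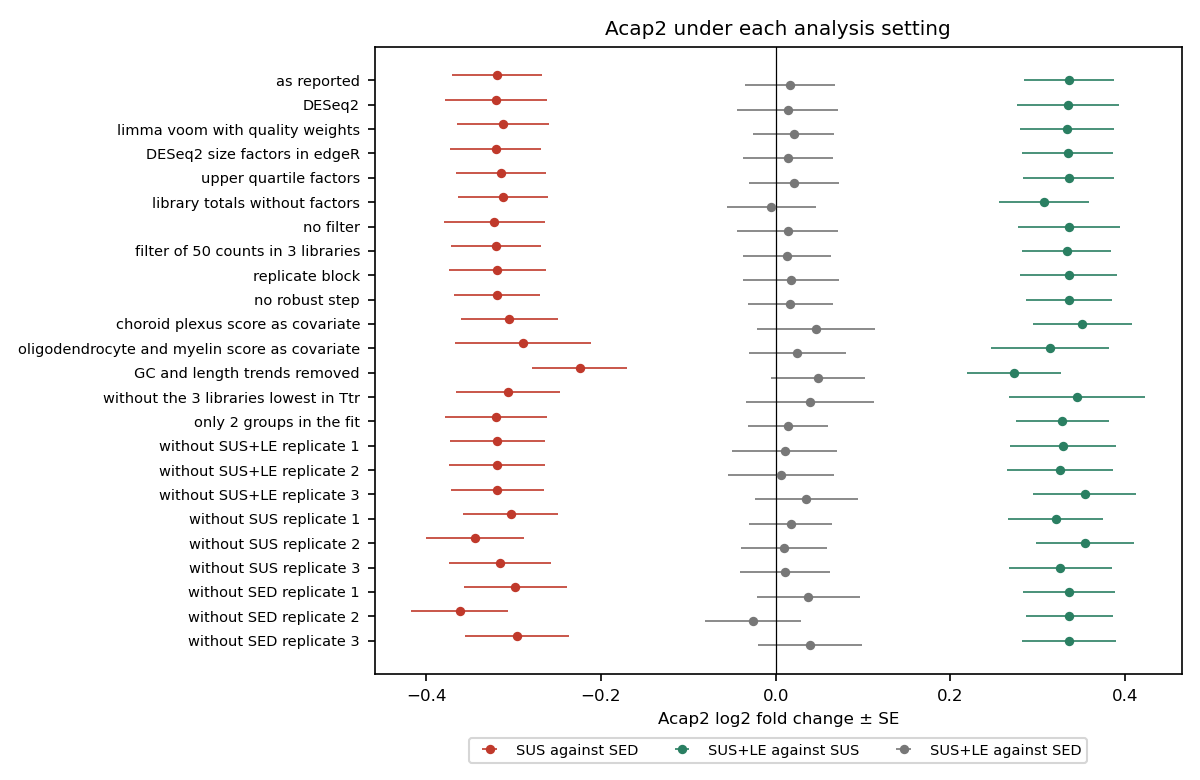
Log2 fold change of Acap2 with its SE (horizontal axis) under the reported analysis and each alternative (rows), for the 3 comparisons. SUS against SED runs from −0.36 to −0.22 and SUS+LE against SUS from 0.27 to 0.35, with the values nearest to 0 after removal of GC and length trends.

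Acap3 is the nearest relative of Acap2 among the genes listed, and it too codes for an Arf6 GAP, known for neurite outgrowth in mouse hippocampal neurons. The 250 bases before the RefSeq start of each gene are shown as a description, with no test of their part in expression. They are written 5′ to 3′ on the gene's own strand (GRCm38.p6), chr16:31201239-31201488 on the minus strand for Acap2 and chr4:155891625-155891874 on the plus strand for Acap3. Capitals mark the GC box GGGCGG and the E-box CACGTG, on either strand.
Acap2: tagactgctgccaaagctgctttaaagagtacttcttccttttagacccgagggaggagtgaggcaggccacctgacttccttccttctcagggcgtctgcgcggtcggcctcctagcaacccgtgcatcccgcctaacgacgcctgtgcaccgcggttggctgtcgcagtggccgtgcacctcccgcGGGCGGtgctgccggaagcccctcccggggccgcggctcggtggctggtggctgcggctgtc
Acap3: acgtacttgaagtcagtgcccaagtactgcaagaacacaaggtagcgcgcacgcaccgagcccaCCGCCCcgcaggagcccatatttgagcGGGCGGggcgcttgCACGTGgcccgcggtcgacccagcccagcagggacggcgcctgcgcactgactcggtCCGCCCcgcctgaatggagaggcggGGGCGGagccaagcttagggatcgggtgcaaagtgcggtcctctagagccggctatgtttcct
Both windows hold 66.4% G and C. The Acap2 window has 1 GC box and 22 CpG dinucleotides, and the Acap3 window has 4 GC boxes, 1 E-box and 25 CpG dinucleotides. Of 32851 promoter windows of this length in the RefSeq table, 32.7% hold GGGCGG and 6.02% hold CACGTG on either strand. The TATA box TATAAA (12.4% of windows), the CCAAT box CCAAT (33.8%), the cAMP response element TGACGTCA (1.55%) and the glucocorticoid response element (0.387%) were also searched on both strands, and those letters are in neither of the windows shown. Windows were found for 7 of the 10 genes.

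Acap3 stood at 84.0, 81.2 and 73.3 CPM in SUS+LE mice, at 93.6, 80.4 and 74.9 CPM in SUS mice, and at 77.9, 79.9 and 77.0 CPM in SED mice. The 3 groups overlapped, and SUS 1 was the highest library. For SUS against SED the log2 fold change was 0.08 (SE 0.07, edgeR adjusted p = 0.670), with a 95% interval of −4.80% to 18.1%, on the side of 0 opposite to Acap2. Without SUS 1 it was −0.01 (SE 0.06). For SUS+LE against SUS it was −0.06 (SE 0.07, edgeR adjusted p = 0.756), and without SUS 1 it was 0.03 (SE 0.06).

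None of the 9 genes other than Acap2 passed an adjusted p of 0.05 in any of the 3 comparisons by edgeR, by limma voom or by DESeq2, and 0 of 9 had an unadjusted edgeR p under 0.05. Over all tested genes 0% passed in each comparison by edgeR after adjustment (DESeq2 called 163, 180 and 16 genes, limma voom 0), and 13.1%, 13.7% and 6.64% had an unadjusted p under 0.05 for SUS against SED, SUS+LE against SUS and SUS+LE against SED. Also, 0 of the 9 had groups without overlap, against 18.3%, 17% and 16.2% of all tested genes in those comparisons. Of the 9 genes, 8 had higher values in SUS than in SED, as had 49.9% of all tested genes (median log2 fold change 0.08, against −0.000386 over all tested genes). For SUS+LE against SUS, 4 had higher values and 5 lower, against 50.3% and 49.7% of all tested genes (median −0.02, against 0.00112). Between SUS+LE and SED, 7 had higher values and 2 lower, against 52.9% and 47.1% of all tested genes (median 0.00, against 0.00854).

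**Figure D3:**
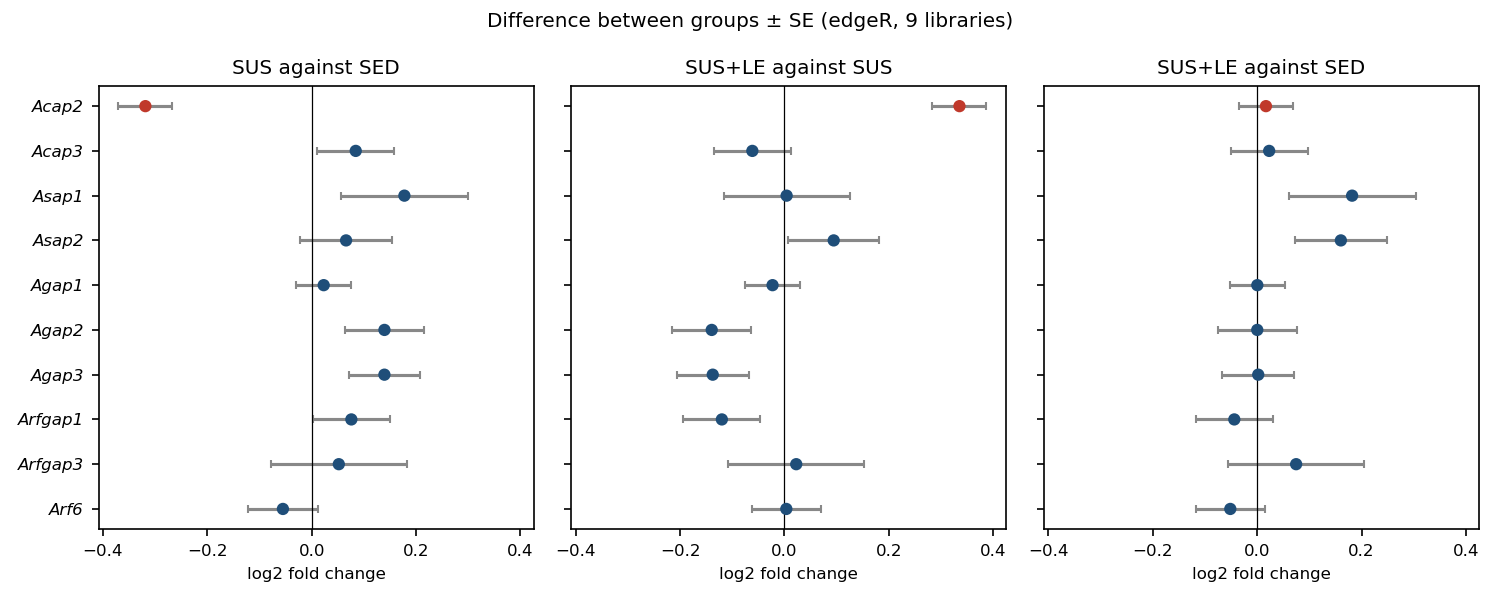
Log2 fold change with its SE (horizontal axis) for the 10 genes (rows) in each comparison, from the edgeR fit to 9 libraries. Acap2, in red, stands at −0.32 and 0.34 in the comparisons with the SUS group, and the other genes lie between −0.14 and 0.18.

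The AGAP proteins carry a GTPase-like domain beside the Arf GAP domain, and 2 of the 3 genes, Agap2 and Agap3, were highest in a single SUS library. Agap2, also known as PIKE and as an activator of phosphoinositide signalling in neurons, stood at 853, 840.0 and 765 CPM in SUS+LE mice, at 1027, 844 and 835 CPM in SUS mice, and at 785, 809.6 and 862 CPM in SED mice. SUS 1 was the highest of the 9 libraries, and the other SUS values lay inside the SED range. Its log2 fold change was 0.14 (SE 0.08, edgeR adjusted p = 0.442) for SUS against SED and −0.14 (SE 0.08, edgeR adjusted p = 0.431) for SUS+LE against SUS. Without SUS 1 these values were 0.04 (SE 0.06) and −0.04 (SE 0.06).

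Agap3, which codes for a GAP of the NMDA receptor complex involved in AMPA receptor traffic, followed the same libraries. It stood at 182, 178 and 170.2 CPM in SUS+LE mice, at 220, 183 and 180.4 CPM in SUS mice, and at 165, 181 and 183 CPM in SED mice. SUS 1 was again the highest library, and the groups overlapped. Agap3 had a log2 fold change of 0.14 (SE 0.07, edgeR adjusted p = 0.405) for SUS against SED, with a 95% interval of −0.434% to 21.8%. In SUS+LE against SUS it was −0.14 (SE 0.07, edgeR adjusted p = 0.395). Without SUS 1 the values were 0.04 (SE 0.05) and −0.04 (SE 0.05). Agap2 and Agap3 transcripts hold 63.0% and 61.2% G and C, more than 98.9% and 97.5% of tested genes. With GC and length trends removed, Agap3 was at 0.06 (SE 0.06) for SUS against SED and −0.02 (SE 0.06) for SUS+LE against SUS, and Agap2 at 0.10 (SE 0.07) and −0.03 (SE 0.07). SUS 1 is the library lowest in Ttr. Without the 3 libraries lowest in Ttr, Agap2 was at 0.03 (SE 0.06) for SUS against SED and 0.00 (SE 0.08) for SUS+LE against SUS, and Agap3 at 0.04 (SE 0.06) and −0.03 (SE 0.08). With a choroid plexus score as a covariate, Agap2 was at 0.07 (SE 0.06) and −0.20 (SE 0.06, edgeR adjusted p = 0.1002), and Agap3 at 0.07 (SE 0.06) and −0.20 (SE 0.06, edgeR adjusted p = 0.0735). The 2 ways of allowing for choroid plexus content thus moved the second comparison in opposite directions.

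Agap1, which acts in endosomal sorting with the AP-3 coat, had a narrow spread. It stood at 114, 116 and 120 CPM in SUS+LE mice, at 121, 121 and 114 CPM in SUS mice, and at 111, 118 and 120.0 CPM in SED mice. The groups covered almost the same range. The log2 fold change was 0.02 for SUS against SED (95% interval −5.80% to 9.60%, edgeR adjusted p = 0.891) and −0.02 for SUS+LE against SUS (95% interval −8.73% to 6.17%, edgeR adjusted p = 0.893). A change of the size seen in Acap2 lies outside both intervals.

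The ASAP proteins add an SH3 domain and act on actin and focal adhesions, and ASAP1 also takes part in carrying rhodopsin to the cilium of photoreceptors. Asap1 stood at 100.5, 90.8 and 107 CPM in SUS+LE mice, at 92.2, 118 and 87.5 CPM in SUS mice, and at 85.0, 97.1 and 81.0 CPM in SED mice. SUS 2 was the highest library, and the SUS values had the widest spread of the 3 groups. Its fitted log2 fold change was 0.18 (SE 0.12, edgeR adjusted p = 0.588) for SUS against SED and 0.00 (SE 0.12, edgeR adjusted p = 0.993) for SUS+LE against SUS. Without SUS 2 these were 0.03 (SE 0.08) and 0.14 (SE 0.08). Against SED, SUS+LE was at 0.18 (SE 0.12, edgeR adjusted p = 0.837), with a wide 95% interval of −6.41% to 37.5%.

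Asap2, whose protein binds the tyrosine kinase PYK2, stood at 51.4, 58.1 and 48.9 CPM in SUS+LE mice, at 43.6, 56.1 and 48.7 CPM in SUS mice, and at 44.7, 49.9 and 47.2 CPM in SED mice. All groups overlapped. Its log2 fold changes were 0.07 (SE 0.09) for SUS against SED, 0.09 (SE 0.09) for SUS+LE against SUS and 0.16 (SE 0.09) for SUS+LE against SED, with edgeR adjusted p = 0.799, 0.671 and 0.779. Without SUS 2 the first value was −0.04 and the second 0.19. Without SUS 1 they were 0.15 and 0.01, and without SUS+LE 2 the second was 0.02 and the third 0.09. Asap2 shares 366 exon bases with Itgb1bp1 and 114 with Gm20535 on the other strand in GENCODE M21. Since the strand setting of the counting is not given in the sources used here, reads from these partners cannot be told apart.

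Arfgap1 and Arfgap3 code for GAPs of the Golgi that act with the COPI coat. Arfgap1 stood at 59.0, 52.6 and 52.0 CPM in SUS+LE mice, at 65.0, 55.6 and 57.2 CPM in SUS mice, and at 59.6, 56.3 and 52.8 CPM in SED mice. SUS 1 was the highest, and the groups overlapped. Its log2 fold change was 0.08 (SE 0.07, edgeR adjusted p = 0.707) for SUS against SED and −0.12 (SE 0.07, edgeR adjusted p = 0.489) for SUS+LE against SUS. Without SUS 1 these were 0.01 (SE 0.07) and −0.05 (SE 0.07). Arfgap3 had the fewest counts of the genes listed, 156 to 228 per library. It stood at 14.4, 13.3 and 13.8 CPM in SUS+LE mice, at 10.7, 14.6 and 15.6 CPM in SUS mice, and at 11.7, 14.2 and 13.7 CPM in SED mice. SUS 1 was here the lowest library. The log2 fold change was 0.05 (SE 0.13, edgeR adjusted p = 0.903) for SUS against SED, with a 95% interval of −14.3% to 25.4%, and 0.02 (SE 0.13, edgeR adjusted p = 0.962) for SUS+LE against SUS. Without SUS 1 these were 0.20 and −0.12.

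Arf6 itself, the substrate of ACAP2, had close values in all groups. It stood at 37.8, 38.5 and 37.2 CPM in SUS+LE mice, at 37.4, 39.1 and 36.7 CPM in SUS mice, and at 40.6, 39.6 and 37.5 CPM in SED mice. The range over the 9 libraries was narrow, and the groups overlapped. The log2 fold change was −0.06 (SE 0.07, edgeR adjusted p = 0.775) for SUS against SED, with a 95% interval of −12.6% to 6.02%. Between SUS+LE and SUS it was 0.00 (SE 0.07, edgeR adjusted p = 0.989), with a 95% interval of −8.98% to 10.4%. With GC and length trends removed they were −0.16 (SE 0.07, edgeR adjusted p = 0.541) and 0.13 (SE 0.07, edgeR adjusted p = 0.633). Arf6 shares 209 exon bases with Gm9887 on the other strand in GENCODE M21.

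Without the 3 libraries lowest in Ttr, none of the 9 genes other than Acap2 passed, with edgeR adjusted p of at least 0.473 in every comparison. Acap3 was then at −0.01 (SE 0.06) for SUS against SED and 0.07 (SE 0.08) for SUS+LE against SUS, and Asap1 at 0.22 (SE 0.18) and −0.17 (SE 0.24). Asap2 was at 0.15 (SE 0.08) and 0.15 (SE 0.10), and Arfgap3 at 0.20 (SE 0.12) and −0.18 (SE 0.17). For SUS+LE against SUS the sign turned in Acap3, Agap2, Asap1 and Arfgap3. Agap1, Arfgap1 and Arf6 kept their sign in both comparisons.

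Between genes, levels can be compared only per length. Per kilobase of the longest GENCODE M21 transcript, which need not be the form made here, Agap2 led with 150.3 ± 13.3 CPM per kilobase (SD over 9 libraries). Agap3 followed with 56.9 ± 4.76. Arf6 at 25.0 ± 0.827 and Acap2 at 24.9 ± 2.83 CPM per kilobase came next, and their order differed between groups. In SUS+LE mice Acap2 had 26.2 to 27.3 and Arf6 24.3 to 25.1 CPM per kilobase, in SUS mice Acap2 had 20.8 to 21.9 and Arf6 23.9 to 25.5, and in SED mice Acap2 had 25.0 to 27.4 and Arf6 24.5 to 26.5. On these lengths Acap2 lay above Arf6 in SUS+LE and below it in SUS without overlap, and the genes overlapped in SED. Acap2 was chosen by its low SUS level, and other transcript lengths would shift this order, so nothing is read from it. Acap3 stood at 18.4 ± 1.37, and Asap1 at 15.5 ± 1.89 and Arfgap1 at 14.8 ± 1.08 CPM per kilobase were again alike within their spread. Agap1 at 9.83 ± 0.289 and Asap2 at 8.78 ± 0.847 CPM per kilobase overlapped in SUS+LE and in SUS and not in SED, and Arfgap3 was the lowest at 5.17 ± 0.577. Acap1, the closest other relative of Acap2 and a gene known from blood cells, had 1 count in SUS+LE 3, 2 counts in SUS 3 and 0 counts in the other 7 libraries, and was not tested.

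The genes whose pattern over the 9 libraries was most like that of Acap2 were sought among 10407 tested genes with a mean log2 CPM above 3. Likeness was the root mean square (RMS) difference of log2 CPM, centred on the 9 libraries. The nearest was Shprh, a ubiquitin ligase gene of DNA damage tolerance (RMS difference 0.0380). Shprh stood at 60.8, 59.4 and 58.3 CPM in SUS+LE mice, at 45.2, 51.0 and 49.4 CPM in SUS mice, and at 61.3, 57.8 and 60.4 CPM in SED mice. Zmym2 (0.0557), a zinc finger protein of histone deacetylase complexes, was also near. Adarb2 (0.0583), a brain relative of the RNA-editing deaminases, and Lrrc7 (0.0594), which codes for the postsynaptic scaffold densin, followed. The log2 fold changes of these 4 genes ran from −0.30 in Shprh to −0.21 in Adarb2 for SUS against SED, and from 0.21 in Lrrc7 to 0.29 in Shprh for SUS+LE against SUS. They were chosen for this likeness, so these values are a description and no support for the pattern. Their transcripts hold 39.2% (Zmym2) to 47.9% (Lrrc7) G and C. None of the other 9 genes listed here was among the 100 nearest.

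**Figure D4:**
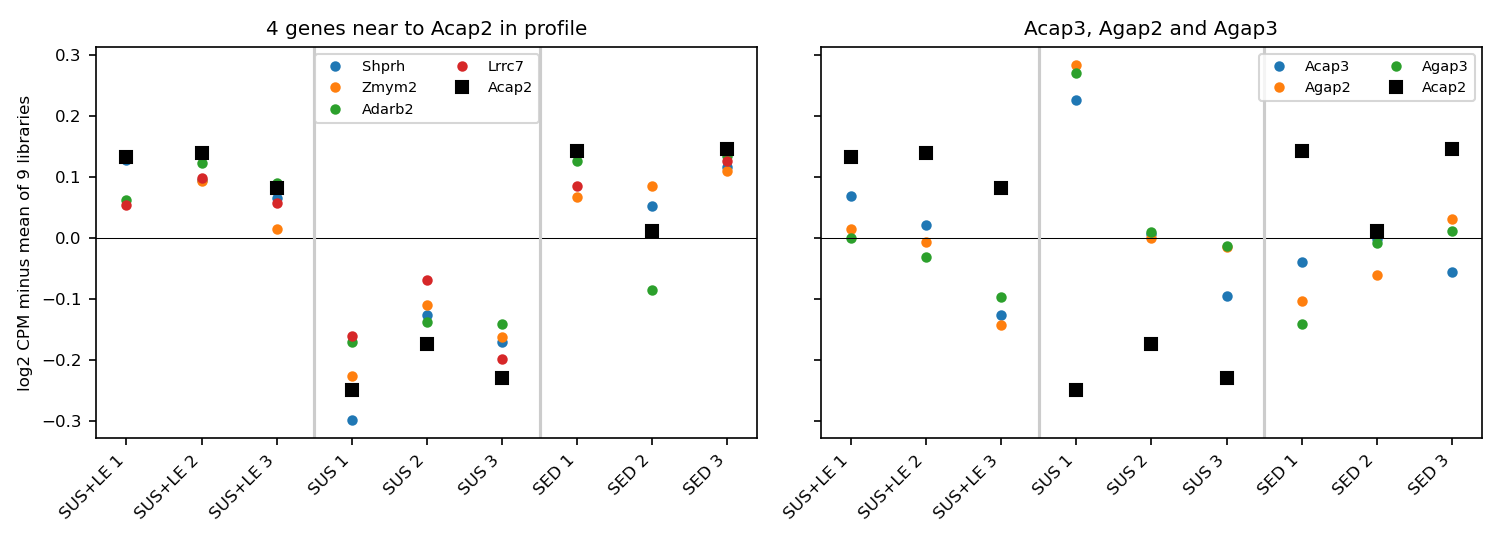
Log2 CPM minus the mean of 9 libraries (vertical axis) in each library, for Acap2 (black squares) with 4 of the genes near to it in profile on the left and with Acap3, Agap2 and Agap3 on the right. On the left all genes lie below 0 in SUS 1 to 3, and on the right Acap3, Agap2 and Agap3 are highest in SUS 1.

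The other genes of the pathway were taken from lists of general knowledge: 14 further Arf GAPs, 5 Arf GTPases, 16 Arf GEFs and 17 partners of Rab35 and Arf6. Of these 52 genes 51 were tested, and 0 passed an adjusted p of 0.05 by edgeR, limma voom or DESeq2 in any comparison. For SUS against SED, 30 had higher values and 21 lower (median log2 fold change 0.04, against −0.000386 over all tested genes). An unadjusted edgeR p under 0.05 was held by 7 of them with higher values in SUS and 6 with lower values, against 6.83% and 6.26% of all tested genes. Groups did not overlap in 15 of the 51 (29.4%), against 18.3% of all tested genes. For SUS+LE against SUS, 21 had higher values and 30 lower (median −0.03, against 0.00112), with 4 and 6 under an unadjusted p of 0.05 against 7.2% and 6.49% of all tested genes. There the groups did not overlap in 9 of 51 (17.6%, against 17%). For SUS+LE against SED the counts were 24 higher and 27 lower. Of these, 4 and 3 were under an unadjusted p of 0.05, against 2.79% and 3.86% of all tested genes. Groups did not overlap in 9 of 51 (17.6%, against 16.2% of all tested genes). Over all tested genes, 7.54% were higher and 8.64% lower in SUS+LE without overlap.

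Rab35, the GTPase that recruits ACAP2, stood at 56.0, 51.8 and 54.4 CPM in SUS+LE mice, at 60.8, 54.5 and 55.0 CPM in SUS mice, and at 49.1, 48.6 and 48.2 CPM in SED mice. All 6 restrained mice lay above the 3 SED mice, and the SUS+LE and SUS values overlapped. The log2 fold change was 0.22 (SE 0.06, edgeR adjusted p = 0.169) for SUS against SED, 0.15 (SE 0.06, edgeR adjusted p = 0.699) for SUS+LE against SED and −0.07 (SE 0.06, edgeR adjusted p = 0.657) for SUS+LE against SUS. None of these passed, and the last pair of groups differed by about its SE.

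Among the Arf GAPs outside the listed members, Git2, a scaffold that also turns off Arf6, stood at 35.2, 33.5 and 32.4 CPM in SUS+LE mice, at 30.4, 29.8 and 28.0 CPM in SUS mice, and at 33.8, 37.1 and 34.3 CPM in SED mice. As in Acap2, every SUS value was below the values of the other groups. Its log2 fold change was −0.25 (SE 0.07, edgeR adjusted p = 0.169) for SUS against SED and 0.19 (SE 0.07, edgeR adjusted p = 0.246) for SUS+LE against SUS, so neither difference passed. Among the GEFs, Arfgef3 was at −0.21 (SE 0.06, edgeR adjusted p = 0.183) for SUS against SED. Psd3, an Arf6 GEF of postsynaptic densities, was at 0.18 (SE 0.07, edgeR adjusted p = 0.245) for SUS+LE against SUS. Spag9, a scaffold that binds Arf6 and motor proteins, was at 0.17 (SE 0.06, edgeR adjusted p = 0.223) in that comparison. Its value with a choroid plexus score as a covariate was 0.22 (edgeR adjusted p = 0.0499).

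Psd2, a brain GEF for Arf6, had the smallest p of the pathway for SUS+LE against SED. It stood at 36.8, 36.7 and 37.2 CPM in SUS+LE mice, at 37.0, 42.8 and 50.9 CPM in SUS mice, and at 47.4, 49.2 and 46.0 CPM in SED mice. All SUS+LE values lay below all SED values, and the SUS values spanned both. The log2 fold change was −0.37 (SE 0.09, edgeR adjusted p = 0.427) for SUS+LE against SED and −0.24 (SE 0.09, edgeR adjusted p = 0.245) for SUS+LE against SUS. The first value did not pass as reported, and passed under 4 of the alternatives at a like size (−0.37). These were no filter on low counts (edgeR adjusted p = 0.000689), only the 6 libraries of that comparison in the fit (edgeR adjusted p = 0.00190), and the fits without SUS 1 (edgeR adjusted p = 0.0224) and without SUS 3 (edgeR adjusted p = 0.0255). The fit with a choroid plexus score as a covariate was not among them. Psd2 rose from SUS 1 to SUS 3, as Ttr did (27.4, 2659 and 6085 CPM). In SUS+LE 1 to 3 it was flat, with Ttr at 83.2, 1509 and 59.6 CPM. The choroid plexus score did not overlap between SUS+LE and SED. A fit with it as a covariate therefore cannot tell choroid plexus content apart from group in the Psd2 difference. Micall1, which links Arf6 and Rab35 on recycling endosomes, stood at 46.0 ± 1.83 CPM in SUS+LE and 51.6 ± 2.13 CPM in SED (−0.17, SE 0.06, edgeR adjusted p = 0.657).

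**Figure D5:**
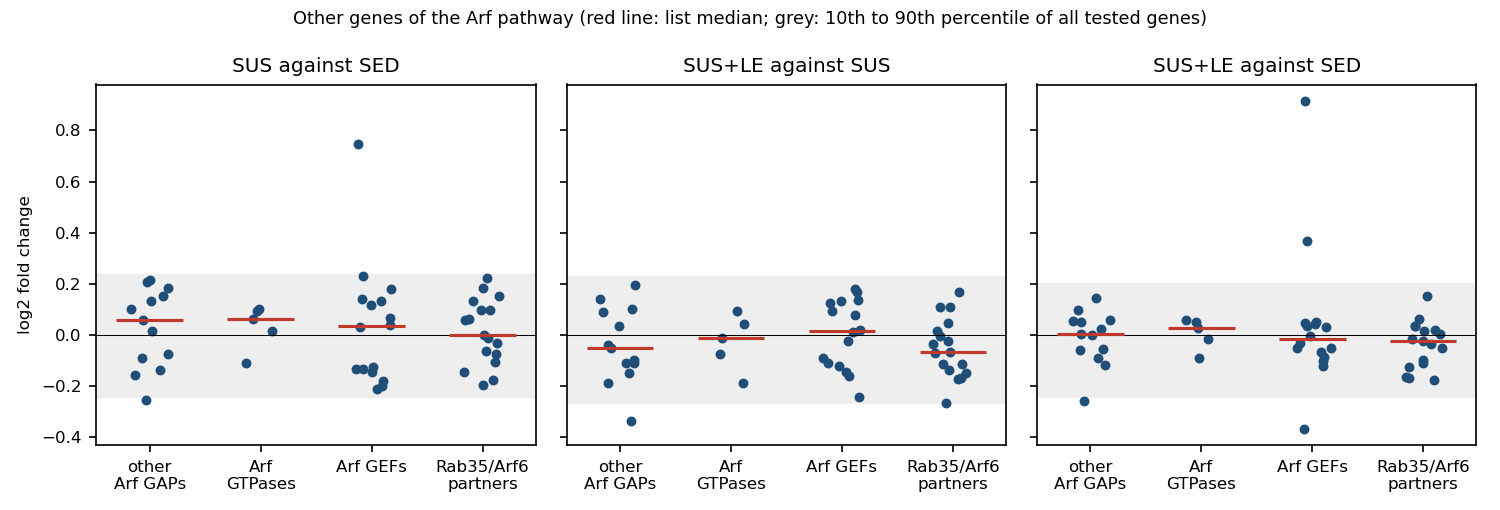
Log2 fold change (vertical axis) of each tested gene of the 4 pathway lists in the 3 comparisons, with the list median as a red line and the range from the 10th to the 90th percentile of all tested genes in grey. Most points lie inside the grey range, and the list medians lie between −0.07 and 0.06.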

How the data were processed

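The values deposited are whole-number counts by gene symbol, with no normalization by the authors, and 1 file was given for each of 9 libraries. Per the submitters' processing notes, fastp, STAR and Salmon were used with GRCm39. Versions, annotation, strand setting and use of molecular identifiers are not given in the sources used here. Per the labels, extraction used RNAiso Plus and library preparation a CORALL V2 kit. File headers number the exercised libraries from 2, and the labels' numbers are used.

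Counts were analysed with R 4.3.3 and edgeR 4.0.16 (filterByExpr, TMM, robust quasi-likelihood fit to all 9 libraries, group as the only term), and p values were adjusted by Benjamini-Hochberg over 16106 genes. SE is the log2 fold change over the root of F. Alternatives used DESeq2 1.42.0, limma 3.58.1, other scaling, filters, samples and covariates. The procedure was tested on simulated data. Log2 CPM used a prior count of 2. Transcript length and GC content came from GENCODE M21 (GRCm38), where 91.3% of tested genes had a symbol match, and promoters from RefSeq. Libraries of a group differed beyond sampling noise (chi-square per degree of freedom at least 2.70). The members and lists were chosen with earlier results of these data known. Named genes were the members, Rab35, the 3 pathway genes with the smallest p in each comparison, and the 5 genes most like Acap2, of which 1 is not reported here. Intervals cover the spread between these mice.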

Additional observations from a re-analysis of the deposited data

How the results depend on the processing

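Over 23 alternatives the Acap2 log2 fold change stayed below 0 for SUS against SED and above 0 for SUS+LE against SUS. Acap2 was chosen by this contrast in the same libraries, so the kept sign is a description. Its log2 fold change moved by more than the spread within groups under removal of GC and length trends, to −0.22 and 0.27. The cause was not tested. None of the other 9 genes passed in any alternative. Pathway genes passed for SUS+LE against SUS with a choroid plexus score (2, Pip5k1c and Spag9) and without SUS 1 (1, Psd2), the count over left-out libraries being 0 to 1. For SUS+LE against SED the count was 1 (Psd2) with no filter, 1 with only 2 groups in the fit, and 0 to 1 over left-out libraries (1 without SUS 1 or SUS 3). Over all genes DESeq2 called 163, 180 and 16 in the 3 comparisons where edgeR called 0. Same-numbered libraries did not pair (correlation of deviations −0.12 to 0.18, and 8 of 18 best with their own number). With replicate number as a block Acap2 was at −0.32, 0.34 and 0.02, and over all genes 1, 1 and 0 passed. Ranking likeness by Pearson's coefficient kept 2 of the 5 genes nearest to Acap2. Small changes in Asap1 and Arfgap3 were not detectable at this spread.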
